A study of Mus musculus with 6 samples.

Results

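The genes described here are 10 genes of TGF-beta and activin signalling: the ligand genes Tgfb1, Tgfb2, Tgfb3 and Inhba, the receptor genes Tgfbr1, Tgfbr2 and Tgfbr3, the latent TGF-beta binding protein genes Ltbp1 and Ltbp2, and the antagonist gene Fst. They were chosen by symbol, and each was measured by 1 probe set, so that 10 of the 19938 genes with a value were members. Each sample, hybridised to an Affymetrix Mouse Gene ST array of its own, was one of 3 mouse osteosarcoma cell lines or one of 3 osteoblast cultures. The lines OS_493H, OS_494H and OS_716H were each derived from a primary tumour of a C57Bl6 mouse that was Osx-Cre+, Rb fl/fl and p53 fl/fl, a model in which the promoter of Osterix (Sp7), active in osteoblast precursors, drives Cre. By the labels OS_493H came from the hip of a female, OS_494H from the hip of a male and OS_716H from the tibia of a female, at ages of 188, 190 and 226 in a unit that is not given. The cultures, numbered 1 to 3, were KUSA4b10 cells, a C57Bl6 stromal line differentiated with 50 ug/ml ascorbate for 21 days from confluence. No treatment with a TGF-beta ligand or inhibitor is labelled. All 3 cultures are the same cell line. Their titles number them as replicates and tag them Ex1, Ex2 and Ex3, which may stand for separate experiments but is not explained, so how much of their spread is technical is not known. The labels name no differentiation for the lines, so their origin, growth and stage cannot be told apart.

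TGF-beta ligands are secreted in a latent form, held by their own propeptide and tethered to the matrix through latent TGF-beta binding proteins. The active ligand binds the type II receptor TGFBR2, which then phosphorylates the type I receptor TGFBR1, and the type I receptor passes the signal to Smad2 and Smad3. Inhba encodes the subunit of activin A, a related ligand that uses activin receptors and is trapped by follistatin, the product of Fst. In bone, TGF-beta is stored in the mineralised matrix in large amounts, and it promotes the early and restrains the late steps of osteoblast differentiation.

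A few facts of the whole series bear on what follows. Rb1, a gene targeted in the model, was at 9.26, 9.70 and 9.87 in the lines, against 10.68, 10.66 and 10.66 in the cultures, on the log2 scale of all values here. The array labelled OS_716H, a female, had the Y-linked transcript Eif2s3y at 10.11 and Xist at 5.50, whereas OS_493H, the other line labelled female, had them at 4.08 and 12.62, so values without OS_716H are given. Culture 2 stood apart from the other cultures, with 150 and 186 genes more than 1 log2 unit away from cultures 1 and 3, which differed from each other that far in 3 genes. Of 8 measured osteoblast markers 3 fell in the lines, and Ibsp, the gene of bone sialoprotein, differed by -6.16 on the log2 scale and Phex, an endopeptidase gene of osteoblasts and osteocytes, by -4.73. Adipocyte markers were lower in the lines, with 11 of 12 called, a mean log2 level of 7.62 to 8.07 in the lines and 10.51 to 11.17 in the cultures, and a summed linear level of 3976 to 9233 against 29644 to 47126. The defining fat cell transcript Adipoq differed by -5.95 and Cd36 by -5.23, and both were dim in the lines, at no more than 6.13 and 5.59. The 14 mitosis genes with a value all rose, with a mean log2 level of 11.27 to 11.72 in the lines against 8.49 to 9.68 in the cultures and a summed linear level of 36947 to 50035 against 5916 to 13217, led by the kinesin gene Kif20a (3.19) and Bub1b (3.00). None of 8 leukocyte and none of 6 endothelial markers passed the test, with summed linear levels of 763.0 to 895 and 664 to 1088 in the lines, against 814 to 888 and 662 to 692 in the cultures. The largest differences on those lists were 0.18 for Csf1r and -0.15 for Cd68, and 1.24 for Tek and -0.09 for Vwf. The part of these differences in the results below was not tested. In such bulk samples, fewer cells of a type and less RNA per cell cannot be told apart.

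Tgfb1 was the member that differed most. It was lower in all 3 lines, as was the type I receptor gene Tgfbr1, while the type II receptor gene Tgfbr2 and the latent binding protein gene Ltbp1 were higher in all 3. These 4 genes passed the test, 2 in each direction, and the other 6 did not. A gene is said to have risen, fallen or been called where limma, fitted over all 19938 genes with Benjamini-Hochberg adjustment, gave an adjusted p under 0.05. By that rule 24.6% of all genes were called, 13.2% as higher and 11.4% as lower, and nothing particular to these genes is read from 4 of 10. The groups did not overlap for the same 4 members, against 41.5% of all genes. The median log2 difference of the 10 members was 0.31, against -0.02 over all genes, and their median absolute difference was 0.59, against 0.17. By mean level the members lay above 73.6% (Ltbp2) to 93.8% (Tgfbr2) of all genes. No set of genes of like level was compared, so nothing particular to the members is read from these medians.

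**Figure D1:**
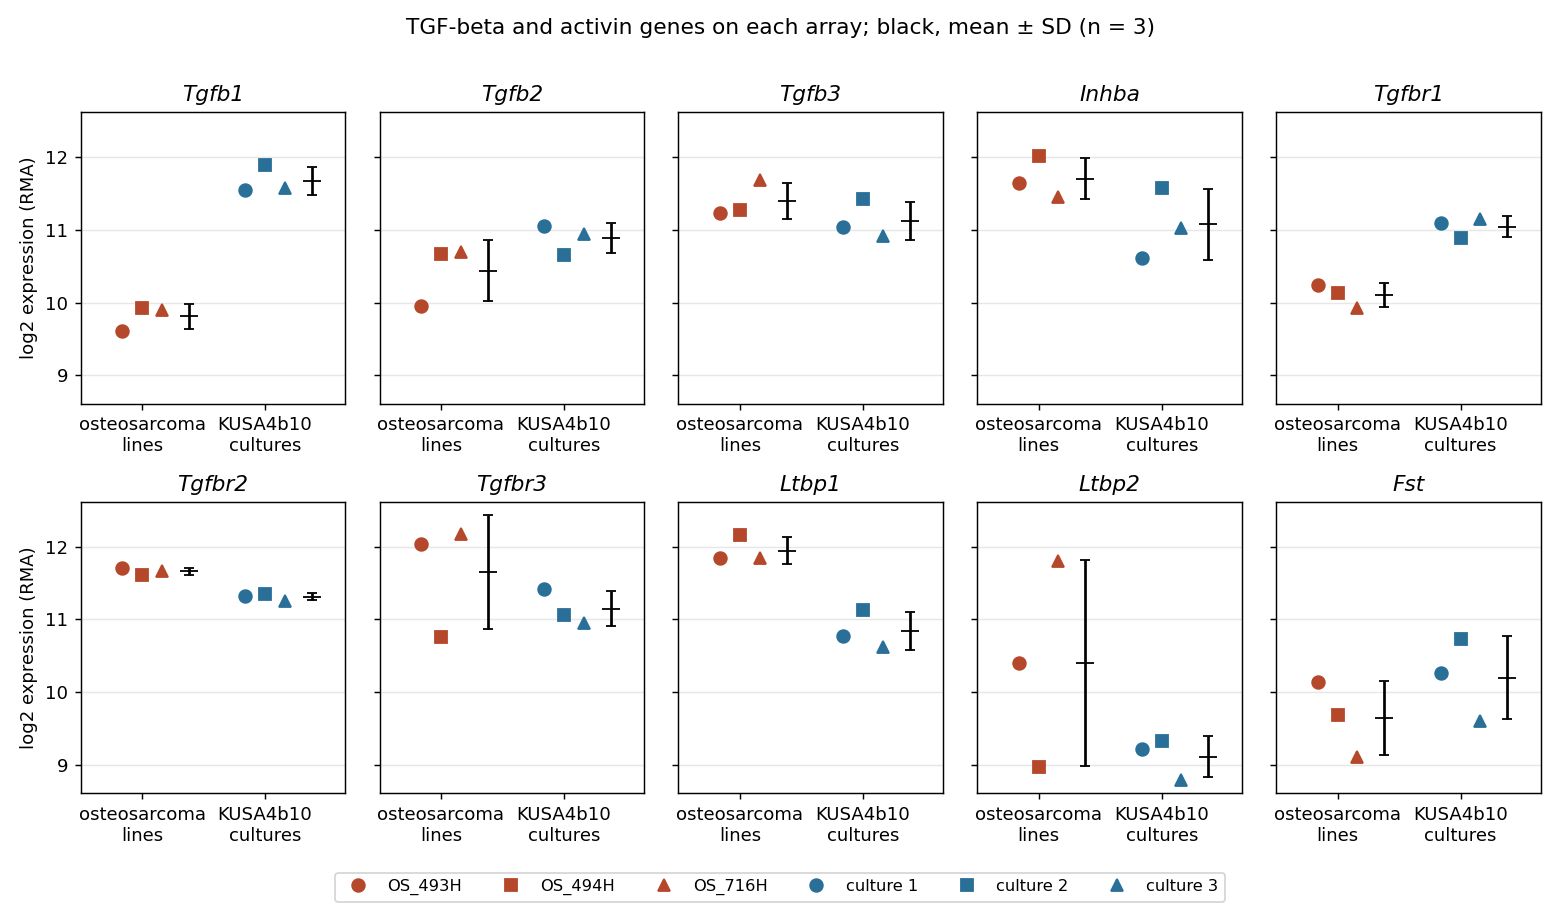
Log2 expression (RMA, vertical axis) of the 10 genes in the 3 osteosarcoma lines (red) and the 3 KUSA4b10 cultures (blue), 1 point per array, with the mean ± SD of each group (n = 3) in black. The groups are apart for Tgfb1, Tgfbr1, Tgfbr2 and Ltbp1 and overlap for the other 6, and OS_494H (red squares) lies far below the other lines for Tgfbr3 and Ltbp2. Levels of different genes come from different probes and are not comparable with each other.

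The promoters annotated for the 4 called genes are shown because these genes moved, in pairs, in each direction. RefSeq promoters of build GRCm38.p6, from 250 bases before to 50 after the start, were found for 7 of the 10 members, namely Tgfb1, Tgfb2, Inhba, Tgfbr1, Tgfbr2, Ltbp1 and Ltbp2. The arrays measured no binding or methylation at these promoters. Each is written 5′ to 3′ on the strand of its gene, and for Tgfbr1 and Ltbp1 the first of 2 listed promoters is given. They lie at chr7:25686752-25687051 (+ strand, Tgfb1), chr4:47352972-47353271 (+ strand, Tgfbr1), chr9:116175314-116175613 (- strand, Tgfbr2) and chr17:75005279-75005578 (+ strand, Ltbp1). Capitals mark the GC box GGGCGG, the Smad-binding core CAGAC and the TATA box TATAAA, each searched on both strands, and no match of CAGAC shared a base with another motif.
Tgfb1 promoter: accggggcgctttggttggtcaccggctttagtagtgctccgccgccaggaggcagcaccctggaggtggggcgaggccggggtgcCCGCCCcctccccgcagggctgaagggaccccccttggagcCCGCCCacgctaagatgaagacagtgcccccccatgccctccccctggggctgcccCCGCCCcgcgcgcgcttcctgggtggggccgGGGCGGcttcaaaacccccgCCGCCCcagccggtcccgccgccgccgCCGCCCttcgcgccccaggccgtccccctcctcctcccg
Tgfbr1 promoter: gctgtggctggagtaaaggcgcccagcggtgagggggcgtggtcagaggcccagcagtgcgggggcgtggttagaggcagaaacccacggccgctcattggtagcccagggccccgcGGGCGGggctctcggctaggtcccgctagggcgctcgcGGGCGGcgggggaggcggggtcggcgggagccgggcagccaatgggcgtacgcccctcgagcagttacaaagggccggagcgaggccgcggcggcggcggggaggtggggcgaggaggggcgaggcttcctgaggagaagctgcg
Tgfbr2 promoter: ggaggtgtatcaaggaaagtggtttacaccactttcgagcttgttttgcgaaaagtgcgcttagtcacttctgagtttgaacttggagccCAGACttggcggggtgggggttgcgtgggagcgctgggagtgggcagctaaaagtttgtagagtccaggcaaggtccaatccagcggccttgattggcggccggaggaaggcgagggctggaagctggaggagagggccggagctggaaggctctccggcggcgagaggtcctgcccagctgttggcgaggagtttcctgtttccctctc
Ltbp1 promoter: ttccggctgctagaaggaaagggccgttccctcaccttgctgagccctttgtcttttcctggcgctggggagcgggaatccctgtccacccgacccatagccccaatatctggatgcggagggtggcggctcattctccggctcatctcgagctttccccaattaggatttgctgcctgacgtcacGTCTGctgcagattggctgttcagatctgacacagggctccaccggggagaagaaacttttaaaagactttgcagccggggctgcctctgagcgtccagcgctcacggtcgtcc

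The 2 genes that fell had promoters of 77% (Tgfb1) and 74.7% (Tgfbr1) G and C, with 30 and 34 CG dinucleotides. These promoters held 6 and 2 GC boxes and no CAGAC core. The second promoter listed for Tgfbr1, not printed, held 1 CAGAC core and no GC box, with 52% G and C and 3 CG dinucleotides. The 2 genes that rose had promoters of 59% (Tgfbr2) and 58.7% (Ltbp1) G and C, with 15 and 17 CG dinucleotides. Each of these held 1 CAGAC core and no GC box, and the second promoter listed for Ltbp1 held 2 CAGAC cores and no GC box. None of these 6 held a TATA box. Of the members not called, Ltbp2 had a promoter with 3 CAGAC cores and 2 GC boxes. The promoter of Tgfb2 held 2 CAGAC cores, 1 TATA box and no GC box. That of Inhba held 1 TATA box and neither of the other motifs. Their G and C content was not compared with that of all listed promoters. Among all 32851 listed promoters of the same length, 35.7% held a GC box, 49.6% a CAGAC core and 13.6% a TATA box, so neither the presence nor the absence of these motifs is rare. The letters are a description of 4 windows and not of any binding there.

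Among the ligands, Tgfb1, the most widely expressed TGF-beta isoform, had log2 values of 9.61, 9.92 and 9.90 in OS_493H, OS_494H and OS_716H (probe set 10551185), against 11.55, 11.90 and 11.58 in cultures 1, 2 and 3. The highest line lay well below the lowest culture, and the spread within each group was small beside the gap. The mean was 9.81 ± 0.18 in the lines and 11.68 ± 0.19 in the cultures (SD, n = 3 each), a log2 difference of -1.87 ± 0.13 (SE), or a 3.65-fold lower level (limma adjusted p = 5.88e-04). By absolute size this difference ranked 455 among all genes, larger than that of 97.7% of them. With any 1 array left out the difference was -1.93 to -1.76 and the gene was called each time, with an adjusted p of 0.00219 without OS_716H and 0.00134 without culture 2.

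Tgfb2, the isoform best known from skeletal and heart development, did not pass the test. Its values were 9.95, 10.67 and 10.69 in OS_493H, OS_494H and OS_716H (probe set 10360920), against 11.05, 10.66 and 10.94 in cultures 1 to 3. OS_493H alone was clearly low, and the other 2 lines lay at the level of culture 2. The log2 difference was -0.45, with a 95% interval of -0.97 to 0.08 (adjusted p = 0.202), and without OS_493H it was -0.20 (adjusted p = 0.38). Weighting the arrays by their residual spread gave -0.69 and a call (adjusted p = 0.036).

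Tgfb3, the third isoform, had values of 11.24, 11.27 and 11.69 in OS_493H, OS_494H and OS_716H (probe set 10401673), against 11.04, 11.42 and 10.92 in the cultures. OS_716H was the highest array, and culture 2 lay above the other 2 lines. The difference was 0.27, with a 95% interval of -0.15 to 0.69 (adjusted p = 0.331). Of the 3 TGF-beta isoforms, Tgfb1 fell and neither Tgfb2 nor Tgfb3 passed. Differences between the isoforms' changes were not tested.

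Inhba, the gene of the activin A subunit, was at 11.65, 12.02 and 11.46 in OS_493H, OS_494H and OS_716H (probe set 10403743), against 10.62, 11.58 and 11.03 in the cultures. The groups overlapped through culture 2, which lay above OS_716H and stood 0.76 log2 units over the other cultures' mean. The difference was 0.63, with a 95% interval of 0.01 to 1.26 that is not adjusted for the number of genes (adjusted p = 0.135). Without culture 2 it was 0.89 and passed (adjusted p = 0.0378).

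Tgfbr1, the type I receptor of TGF-beta, had values of 10.25, 10.14 and 9.93 in OS_493H, OS_494H and OS_716H (probe set 10504817), against 11.10, 10.89 and 11.16 in cultures 1, 2 and 3. Every line lay below every culture. The mean was 10.10 ± 0.16 in the lines and 11.05 ± 0.14 in the cultures (SD, n = 3 each), a difference of -0.94 ± 0.11 (SE), or a 1.92-fold lower level (adjusted p = 0.00229). The call held with any 1 array left out, at -1.02 to -0.86, with an adjusted p of 0.00514 without OS_716H and at most 0.0164.

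Tgfbr2, the type II receptor that binds the ligand first, moved the other way and by little. Its values were 11.71, 11.61 and 11.66 in OS_493H, OS_494H and OS_716H (probe set 10597518), against 11.33, 11.36 and 11.26 in the cultures. The arrays of each group spanned only 0.10 log2 units, and the groups did not overlap. The difference was 0.35 ± 0.07 (SE), or a 1.27-fold higher level (adjusted p = 0.013). The call was lost without culture 1 (0.35, adjusted p = 0.0563) and without culture 3 (0.32, adjusted p = 0.0619), and held without OS_716H (0.35, adjusted p = 0.0273).

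Tgfbr3, betaglycan, is a co-receptor that presents ligands, TGF-beta 2 above all, to the type II receptor. Its values were 12.04 in OS_493H, 10.75 in OS_494H and 12.17 in OS_716H (probe set 10532085), against 11.42, 11.07 and 10.95 in cultures 1 to 3. OS_493H and OS_716H lay above all cultures, and OS_494H below all of them. The difference was 0.51, with a 95% interval of -0.39 to 1.41 (adjusted p = 0.396). Without OS_494H it was 0.96 and passed (adjusted p = 0.00708).

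Ltbp1, which binds latent TGF-beta and anchors it in fibrillin-rich matrix, was at 11.84, 12.16 and 11.84 in OS_493H, OS_494H and OS_716H (probe set 10446928), against 10.77, 11.13 and 10.63 in the cultures. Every line lay above every culture, and culture 2 was the highest culture. The mean was 11.95 ± 0.18 in the lines and 10.84 ± 0.26 in the cultures (SD, n = 3 each), a difference of 1.11 ± 0.16 (SE), or a 2.15-fold higher level (adjusted p = 0.0037). With any 1 array left out the difference was 1.00 to 1.25 and the call held, with an adjusted p of 0.00913 without OS_716H and at most 0.0226.

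Ltbp2 is named for its likeness to Ltbp1 but is a microfibril protein that does not bind latent TGF-beta. It had the widest spread among the lines of the 10 members, with 10.40 in OS_493H, 8.97 in OS_494H and 11.81 in OS_716H (probe set 10401527), against 9.21, 9.32 and 8.79 in the cultures. OS_716H and OS_493H lay above all cultures, and OS_494H lay within their range. The SD over the lines was 5.06 times that over the cultures, and for Tgfbr3 it was 3.21 times. The difference was 1.29, with a 95% interval of -0.28 to 2.85 (adjusted p = 0.217). Without OS_494H it was 2.00 and passed (adjusted p = 0.0158), and without OS_716H it was 0.58 (adjusted p = 0.383).

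Fst, the gene of follistatin, which binds activins and neutralises them, had values of 10.13, 9.69 and 9.11 in OS_493H, OS_494H and OS_716H (probe set 10412260), against 10.26, 10.73 and 9.61 in cultures 1 to 3. Both groups were spread over more than 1 log2 unit, and they overlapped. The difference was -0.56, with a 95% interval of -1.39 to 0.28 (adjusted p = 0.316). Fst and Inhba thus both missed the threshold, with differences of opposite sign. Without OS_716H the difference of Fst was -0.29.

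**Figure D2:**
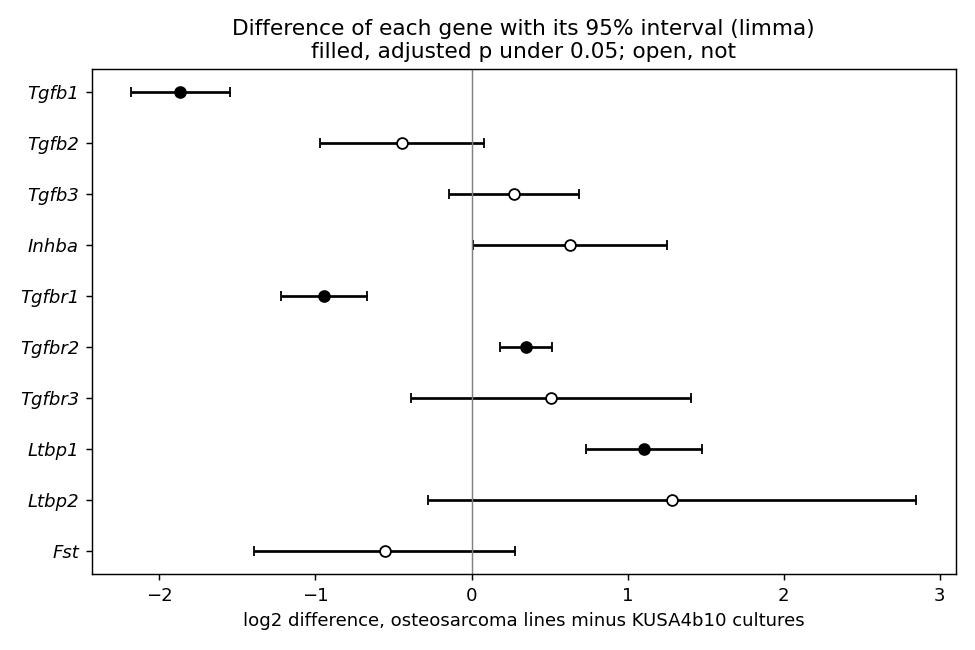
Log2 difference of each gene (horizontal axis, osteosarcoma lines minus KUSA4b10 cultures, 3 arrays each) with its 95% interval from limma, not adjusted for the number of genes. Filled points passed at an adjusted p under 0.05: Tgfb1 at -1.87 and Tgfbr1 at -0.94 lie left of 0, and Ltbp1 at 1.11 and Tgfbr2 at 0.35 lie right of it.

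The lines did not vary more than the cultures for most members. The SD over the 3 lines was larger than that over the 3 cultures for 4 of the 10 members, Tgfb2, Tgfbr1, Tgfbr3 and Ltbp2, whereas it was larger for 65.8% of all genes. Leaving out 1 array in turn moved the number of members called higher from 1 (without culture 1 or culture 3) to 4 (without OS_494H), with 2 called lower each time. Without OS_716H the counts were 2 and 2, for the 4 genes named above, and the differences of Tgfb2, Tgfb3, Inhba and Tgfbr3 were then -0.57, 0.13, 0.76 and 0.25, none past the threshold.

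**Figure D3:**
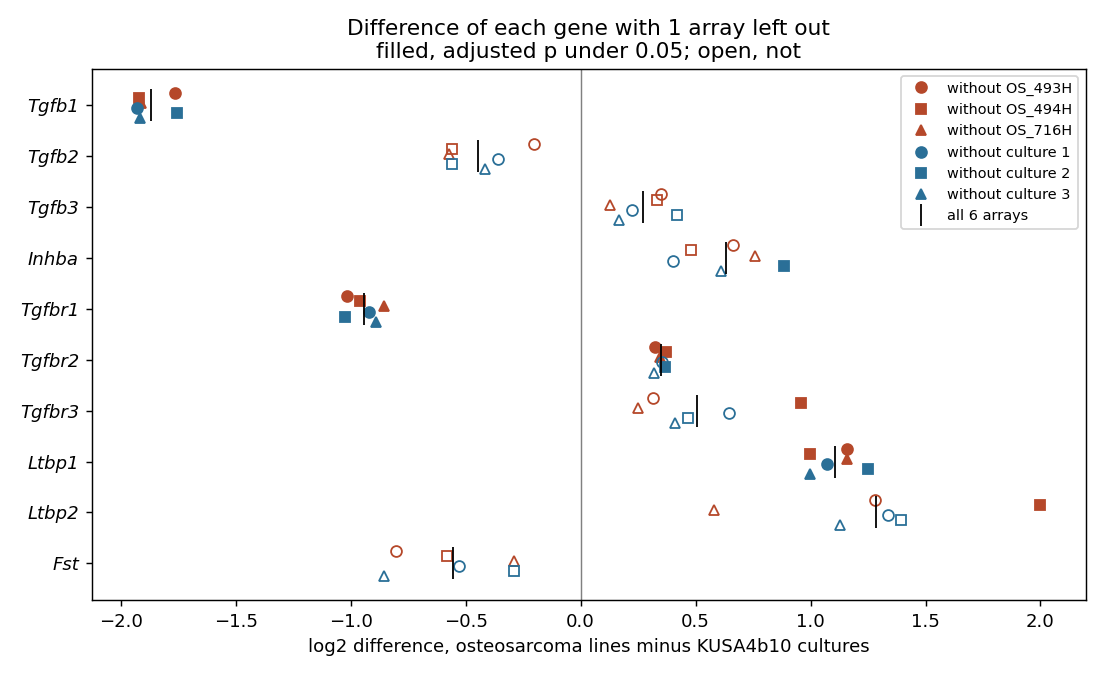
Log2 difference of each gene (horizontal axis, osteosarcoma lines minus KUSA4b10 cultures) with 1 array left out at a time (red, a line left out; blue, a culture left out), beside the value from all 6 arrays (black bar). Filled points passed at an adjusted p under 0.05. Tgfb1, Tgfbr1 and Ltbp1 are filled in all 6 fits, and Tgfbr3 and Ltbp2 are filled only without OS_494H, at 0.96 and 2.00.

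Of 75 other genes of the pathway, 71 were measured, and 12 of these rose and 10 fell in the lines, against 13.2% and 11.4% of all genes. In either direction 22 of the 71 were called, or 31.0%, against 24.6% of all genes, a difference that was not tested. Their median log2 difference was -0.0047, against -0.02 over all genes. With 1 array left out, 9 (without culture 1) to 15 (without OS_494H or culture 2) rose and 6 (without OS_493H or culture 1) to 12 (without OS_716H) fell. Without OS_716H 11 rose, and without culture 2 9 fell. Lists that share a gene count it in each.

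Of 9 other ligands and ligand-like genes, 1 rose and none fell, so that 11.1% were called, against 24.6% of all genes. Lefty1, a diverged family member that blocks Nodal signalling, was 7.03 ± 0.10 in the lines and 6.13 ± 0.14 in the cultures (SD, n = 3 each, adjusted p = 0.00166), below the median of all values, 7.53, in both groups. Nodal itself differed by 0.16 (adjusted p = 0.31). Of 12 measured genes listed under latency, storage and activation, 1 rose and 2 fell, or 25.0% called, close to the 24.6% of all genes. Ltbp4, a further latent TGF-beta binding protein, was 7.90 ± 0.01 in the lines and 9.60 ± 0.10 in the cultures (SD, n = 3 each), a 3.25-fold lower level (adjusted p = 1.71e-04), opposite in direction to Ltbp1. Mmp14, a membrane-bound protease that can release TGF-beta from its latent complex, fell 1.59-fold (adjusted p = 0.00721). The only gene of this list that rose was Tgfbi, a secreted matrix protein induced by TGF-beta and also listed among the targets. Its place is thus with the targets rather than with latency, storage or activation. Tgfbi rose 8.54-fold, with 11.61, 11.24 and 13.50 in the lines against 8.92, 9.40 and 8.74 in the cultures (adjusted p = 0.0097).

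Of 7 other receptors and co-receptors, 1 rose and 1 fell, or 28.6% called, against 24.6% of all genes. Eng, endoglin, a TGF-beta co-receptor of endothelial and stromal cells, had 10.31, 10.13 and 10.36 in the lines, against 7.21, 7.52 and 7.21 in the cultures, a 7.74-fold higher level (adjusted p = 1.28e-04). Among the 6 endothelial markers, none of them called, Tek was at 9.05, 6.30 and 7.52 in OS_493H, OS_494H and OS_716H, against 6.40, 6.34 and 6.40 in the cultures, and Pecam1 and Cdh5 were at no more than 6.82 on any array. The part of endothelial transcripts in the level of Eng was not tested. Acvr1c, the type I receptor ALK7, which is found in fat, fell 1.62-fold (adjusted p = 0.0184), a call lost without OS_493H, culture 1 or culture 2 (adjusted p up to 0.0616). It was dim, at 6.17 ± 0.16 in the lines and 6.87 ± 0.27 in the cultures (SD, n = 3 each), below the median of all values, 7.53, in both groups. Of 8 other extracellular antagonists, 2 fell and none rose, or 25.0% called, close to the share of all genes. Dcn, decorin, a matrix proteoglycan that can bind TGF-beta, had 9.79, 8.79 and 10.68 in the lines, against 12.99, 13.35 and 13.07 in the cultures, a 10.4-fold lower level (adjusted p = 0.0028). Fstl3, a follistatin relative that binds activin, fell 1.37-fold (adjusted p = 0.0164).

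Of 15 Smads and partners, 1 fell and none rose, or 6.67% called, against 24.6% of all genes. Tgif1, a transcriptional corepressor that binds Smad2, fell 1.79-fold (adjusted p = 0.0116), a call lost without culture 1 (adjusted p = 0.0547). Smurf1, a ubiquitin ligase of the pathway, differed by -0.52 (adjusted p = 0.0522). Smad2, Smad3 and Smad4, which carry the signal to the nucleus, differed by 0.17, -0.13 and 0.01, and none passed.

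Of 22 measured genes known as TGF-beta targets, 10 rose and 4 fell, with a median log2 difference of 0.62 against -0.02 over all genes. In either direction 63.6% were called, against 24.6% of all genes, a difference that was not tested. Besides Tgfbi, Tagln, an actin-binding protein gene of smooth muscle, rose 4.25-fold (11.43 ± 0.28 against 9.34 ± 1.00, SD, n = 3 each, adjusted p = 0.0205). Its call was lost without OS_716H, culture 1 or culture 3 (adjusted p up to 0.0775). Cdkn2b, which encodes the cell cycle inhibitor p15, rose 2.53-fold (adjusted p = 0.00211), and Col4a1, a basement membrane collagen gene, fell 3.11-fold (adjusted p = 0.0013). Leaving out 1 array gave 7 (without culture 1) to 12 (without culture 2) targets that rose and 1 (without OS_493H) to 3 that fell. These genes answer to other signals as well, and the part of TGF-beta in their levels was not tested. The mean log2 level of the targets was 11.24, 11.13 and 11.47 in OS_493H, OS_494H and OS_716H, against 10.63, 10.95 and 10.63 in the cultures. Each line thus lay above each culture. The same order held, with a smaller gap, for the mean of all genes, at 8.155 to 8.172 in the lines against 8.131 to 8.149 in the cultures. Genes with a large difference, such as Tgfbi, weigh heavily in the mean of a short list.

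**Figure D4:**
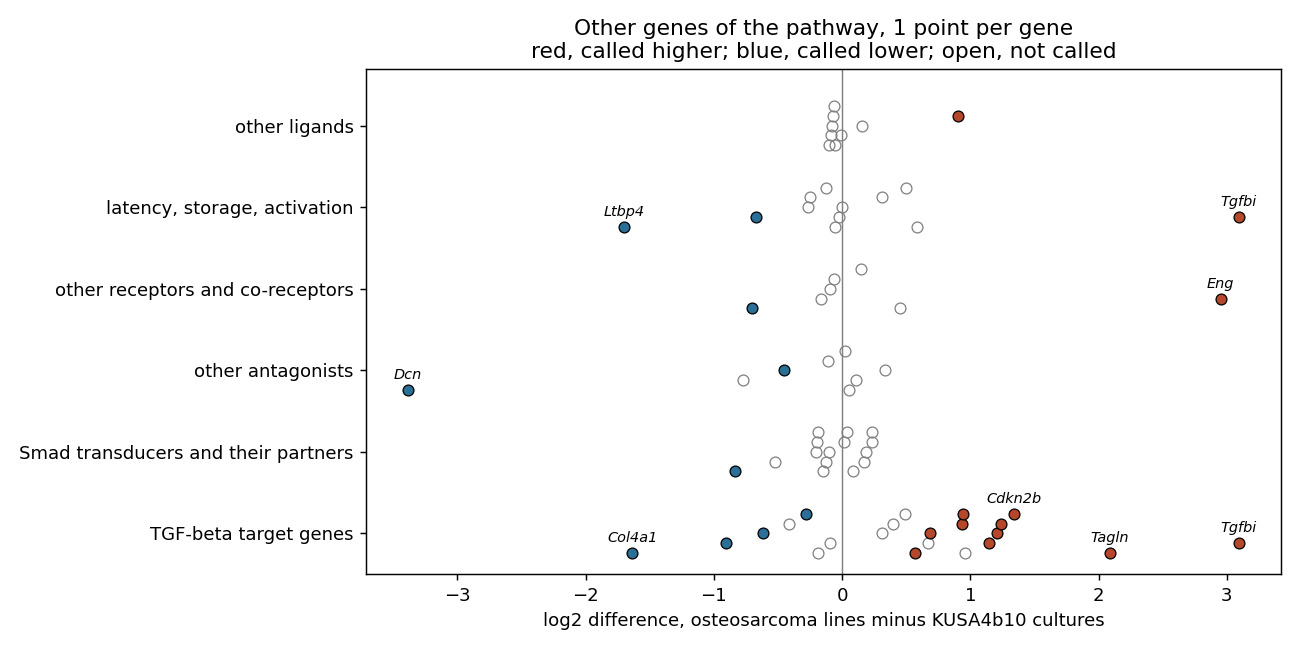
Log2 difference (horizontal axis, osteosarcoma lines minus KUSA4b10 cultures) of the 71 other measured pathway genes, 1 point per gene and list, by list (vertical axis). Red points were called higher and blue points called lower at an adjusted p under 0.05, and open points were not called. The 22 targets hold 10 red and 4 blue points, and Eng, Tgfbi, Ltbp4 and Dcn lie furthest out among the upper lists.

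Genes whose level over the 6 arrays was most like that of Tgfb1 were sought among 3433 genes that spanned at least 1 log2 unit. The 5 with the highest Pearson correlation were Sp8, Nr3c2, C130030K03Rik, Mertk and Mrgpre, with r of 0.996 to 0.997. All 5 were lower in the lines, with log2 differences from -1.06 (Mrgpre) to -3.20 (Mertk, a receptor tyrosine kinase gene). With 6 arrays in 2 groups that are far apart, such an r mostly restates the group difference and the place of culture 2, and it is given as a description.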

How the data were processed

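The authors deposited a table of 35556 probe sets by 6 arrays. Per the submitters' processing notes it was made by RMA with build mm9, and the program used is not stated in the sources used here. This method equalises the arrays' distributions, shrinks large differences and gives no call of presence. That the deposited numbers are log2 values follows from their range of 3.04 to 14.88. Samples were grouped by title, each column was named for its sample, and at most 24 probe sets had the same value on the replicate arrays compared.

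Probe sets with 1 symbol in the platform annotation (21789) were used, with the brightest probe set over all arrays for each of 19938 genes. The comparison used limma 3.58.1 under R 4.3.3 (lmFit, eBayes, two-sided, no covariate or filter) on all 6 arrays, with Benjamini-Hochberg adjustment over all genes and a threshold of 0.05. The 10 members and the pathway and marker lists were chosen with earlier results of these data known. From each pathway list up to 4 called genes with the largest difference are named, or the 2 largest where fewer than 2 were called, and from each marker list the 2 largest. Likeness was sought for the member with the largest difference. Rb1, Xist and Eif2s3y check the labels. Smad2, Smad3, Smad4, Pecam1 and Cdh5 are named outside this rule, after their values were seen. No batch is labelled, so none was tested. The fit was tested on simulated data. Having 3 arrays a group limits the precision. As all 3 cultures are the same cell line, the p-values concern KUSA4b10 and not osteoblasts in general. Alternatives were other scalings, a filter on dim genes, other moderation and weights, other probe set rules and thresholds, and leaving out each array.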

Additional observations from a re-analysis of the deposited data

How the results depend on the processing

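Tgfb1, Tgfbr1 and Ltbp1 kept their direction and their call under all 15 alternatives that refit the model, with log2 differences of -1.93 to -1.76, -1.02 to -0.86 and 1.00 to 1.25. No member changed sign under any of them. Tgfbr2 lost its call without culture 1 (0.35) and without culture 3 (0.32). Calls appeared for Tgfb2 with array weights (-0.69), for Inhba without culture 2 (0.89) and, without OS_494H, for Tgfbr3 (0.96) and Ltbp2 (2.00). Asking for at least a 2-fold change left 1 member higher and 1 lower, 7 other pathway genes higher and 3 lower, and 811 genes in all higher and 561 lower. At an adjusted p under 0.01, 1 member was higher and 2 were lower, and 9 other pathway genes were higher and 4 lower. In all, 1394 genes were then higher and 1072 lower. These stricter settings keep the fit and so can only remove calls. Leaving out 1 array gave 1 to 4 members higher, 9 to 15 other pathway genes higher and 6 to 12 lower, 1533 to 2796 genes in all higher and 1211 to 2314 lower. The cause of these shifts was not tested, and each such fit also has 1 array fewer. No paired analysis was run because the labels pair no line with a culture. The arrays carry no detection call, so the level at which a dim gene such as Lefty1 stands above background is unknown.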

Other observations

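The line OS_494H was the lowest line for several further genes of the pathway, which were picked after their values were seen. OS_494H also stood furthest from the other lines over all genes. It lay more than 1 log2 unit from OS_493H in 566 genes and from OS_716H in 652, while those lines differed that far in 401. The share of all genes that were lowest in OS_494H was not counted, so nothing particular to the pathway is read from the genes below. Lrrc32, which tethers latent TGF-beta to the cell surface, was at 11.00, 9.30 and 11.12 in OS_493H, OS_494H and OS_716H, against 10.77, 10.29 and 10.73 in the cultures. The activin type II receptor gene Acvr2a was at 10.36, 8.83 and 10.26 in the lines, against 9.50, 9.01 and 9.60 in the cultures. The activin type I receptor gene Acvr1b was at 9.07, 8.17 and 9.61 in the lines, against 8.85, 8.82 and 8.72 in the cultures. For all 3 genes OS_494H lay below every culture, as it did for Tgfbr3 and not for Ltbp2, and none of the 3 was called with all 6 arrays.

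The 5 genes most like Ltbp1 over the 6 arrays were also looked at after the fact. They were 4930579G24Rik (r = 0.9995), and Prr11, Arhgap11a, Fignl1 and Espl1, each with r = 0.999. Espl1, the separase gene of mitosis, was at 9.19, 9.72 and 9.23 in the lines, against 7.61, 8.05 and 7.44 in the cultures. As for Ltbp1, OS_494H was the highest line and culture 2 the highest culture. The mean of the mitosis list had the same order, at 11.27, 11.72 and 11.31 in the lines against 8.65, 9.68 and 8.49 in the cultures. The part of growth state in the level of Ltbp1 was not tested.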
